A study of Schmidtea mediterranea with 28 samples.

Results

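*bruli* encodes an RNA-binding protein of the CELF family (also called Bruno-like), and the data described here are the transcript levels of planarian X1 cells after its knockdown. X1 is the fraction of dissociated *Schmidtea mediterranea* cells with doubled DNA content, sorted by flow cytometry, and it is enriched in cycling neoblasts. The members were chosen by their labels alone, as the 2 X1 libraries of *bruli* RNAi and the 2 X1 libraries of control RNAi, 4 of the 28 libraries of the series. All worms belonged to the asexual Berlin-1 strain, which descends from 1 individual. The knockdown worms had been injected with *bruli* dsRNA and the controls with dsRNA of *GFP*, a gene that planarians lack, on 3 consecutive days at 20 °C in both cases, with cells harvested at day 10. *bruli* dsRNA was at 1 µg/µl, whereas control dsRNA could be raised to the highest dose of the experimental groups, and its dose in these 2 libraries is not given in the sources used here. Other libraries are used beside them. X2 cells, which the paper describes as stem cells mixed with their early progeny, and whole worms were given the same 2 dsRNAs, with 1 library per treatment. Xins cells (differentiated, irradiation-insensitive) had 2 libraries per treatment. X1, X2 and Xins cells of wild type worms were also used. The dsRNA reaches every tissue, so the knockdown is not restricted to X1 cells, and the number of worms behind a library is not given in the sources used here.

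Neoblasts are the only dividing somatic cells of planarians and renew every tissue, and they express many genes of animal germ lines. These include PIWI proteins, which carry the small RNAs called piRNAs, the helicase Vasa (*DDX4*) and Tudor-domain proteins, which assemble in perinuclear granules. CELF proteins bind UG-rich RNA and regulate splicing, translation and stability of mRNAs in other animals. The comparison asks which transcripts change in neoblast-enriched cells when *bruli* is knocked down.

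The dsRNA was made from a template amplified with a pair of primers that define which part of *bruli* was targeted. They are shown with the gene-specific part of the reverse primer for the full coding sequence, with which the second dsRNA primer shares 10 bases. Capitals mark those 10 bases, at the 5′ end of the second dsRNA primer and the 3′ end of the cloning primer.
first dsRNA primer: ctccactcgtaaattccagtcc
second dsRNA primer: CTCCCTTTGGtcgttttaattg
cloning reverse primer: tcaattcttgtattCTCCCTTTGG

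The 4 libraries held 21300317 to 29273384 counts over 18867 to 20644 detected transcripts, and 3 counts equalled 0.102 to 0.141 CPM (counts per 1e6 counts of a library). Libraries with the same replicate number resembled each other more (Pearson r of log2 levels across transcripts 0.975 for number 1 and 0.974 for number 2) than did the *bruli* RNAi libraries (0.964) or the control libraries (0.957) among themselves. Number 1 libraries were also the shallower ones, with 21300317 and 23385401 counts, against 26112135 and 29273384 counts for number 2. The replicate number was therefore a block in the test. What follows rests on 10542 transcripts whose mean log2(cRPKM + 1) over the 4 libraries exceeded 1.5. cRPKM is the authors' RPKM corrected for mappable positions, and the transcripts nearest the threshold stood at 1.4991 (left out) and 1.50022 (kept). Levels below are CPM of the library size scaled by edgeR's trimmed mean, or plain CPM where the unscaled total was used, and log2 differences are *bruli* RNAi minus control RNAi from edgeR.

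*bruli* itself was the first check of the labels. Its transcript (comp2592) stood at 105 and 143 CPM in *bruli* RNAi libraries, against 817 and 1027 CPM in control libraries. Both knockdown libraries lay far below both controls. The log2 difference was −2.90 (SE 0.14), which leaves 13.4% of the control level, and it was called by edgeR's quasi-likelihood test (adjusted p = 0.0174, Benjamini-Hochberg over all transcripts tested). X1 cells of wild type worms held 1045 plain CPM, and X1 cells given dsRNA of muscleblind-like genes held 645 and 843 plain CPM. Without the replicate block the log2 difference was −2.90 with an adjusted p of 0.337 in edgeR's quasi-likelihood test. The family has 4 members in the study, of which *celf-1* and *celf-3* were not analysed here. *celf-2*, used below as a marker of differentiated cells, lay under the threshold on low values with 9 and 9 counts in *bruli* RNAi libraries and 5 and 3 counts in controls.

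After *bruli* RNAi 249 transcripts were called higher (2.36% of those tested) and 191 lower (1.81%), together 440 or 4.17%, at a Benjamini-Hochberg adjusted p under 0.05 in edgeR's quasi-likelihood test. Of these, 180 higher and 106 lower ones differed at least 2-fold. The higher ones had a median control level of 12.2 CPM, against 100.1 CPM for the lower ones. Controls are the low group for the former and the high group for the latter, so part of this gap follows from the calling itself. In 239 of the 249 higher and 174 of the 191 lower transcripts the libraries of the 2 groups did not overlap, which held for 20.9% (higher) and 16.1% (lower) of all transcripts tested. The number of calls depended on the block and on single libraries. Without the block edgeR called 0 transcripts, with 758 at an unadjusted p under 0.05, against 2685 with the block. All 440 had the same sign in both fits. These fits use the same 4 libraries, so a change of sign was hardly possible and the kept sign is no separate evidence. DESeq2 and limma with the block called 899 and 852. To leave out 1 library at a time, the spread was taken from all sorted RNAi libraries, a fit that called 161 with all 4 libraries present. It called 0 without *bruli* RNAi replicate 1, 0 without *bruli* RNAi replicate 2, 6 without control replicate 1 and 11 without control replicate 2. The calls below therefore carry the condition that same-numbered libraries are matched, and since nothing says that the replicates came from separate groups of worms, the p-values measure only the spread between these libraries.

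Only 318 of the transcripts tested carry a name in the study's annotation, mostly RNA-binding proteins named after the closest human protein. Of these 14 were lower and 2 higher. The plot of named transcripts by library shows the 15 that follow the naming rule. These are *bruli* and, in each direction, the up to 12 largest named calls whose libraries do not overlap.

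**Figure D1:**
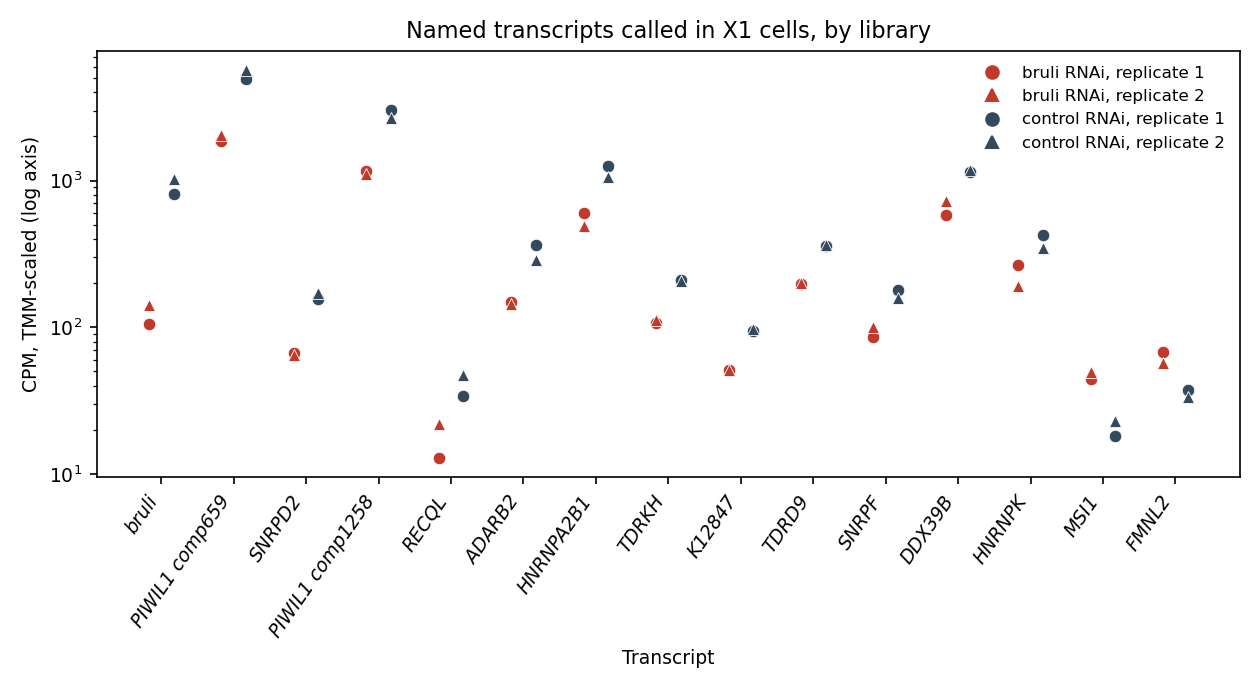
Levels of the 15 named transcripts called in X1 cells, in CPM on a log axis, with 1 symbol per library (red, *bruli* RNAi; dark, control RNAi; circles, replicate 1; triangles, replicate 2). In each of the 13 transcripts from *bruli* to *HNRNPK* both *bruli* RNAi libraries lie below both controls, and for *MSI1* and *FMNL2* both lie above. Apart from *bruli*, the transcripts were picked by this lack of overlap.

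Transcripts of the piRNA pathway were among the clearest falls. All 7 transcripts of this list were tested, 4 fell and 0 rose (57.1% lower, against 1.81% of all transcripts). The median log2 difference was −0.87 against 0.001 over all transcripts. In 7 of 7 both *bruli* RNAi libraries lay below both controls, against 16.1% of all transcripts tested. All 7 members also belong to the wild type X1-enriched set defined below, of which 9.12% fell, with a set median of −0.23. The list was chosen with earlier results of these data known, so these counts describe it and are no independent test. *PIWIL1* (comp659), closest to human PIWI-like 1 and thus to the planarian PIWI proteins that mark neoblasts, was at 1854 and 2051 CPM in *bruli* RNAi libraries, against 4962 and 5668 CPM in controls. Its log2 difference was −1.44 (SE 0.16, edgeR adjusted p = 0.0220). The other *PIWIL1* transcript (comp1258) was at 1171 and 1113 CPM after *bruli* RNAi and at 3037 and 2680 CPM after control RNAi (log2 −1.32, SE 0.15). Within each replicate number these transcripts differed by nearly the same amount, by −1.42 and −1.47 for comp659 and by −1.37 and −1.27 for comp1258 on the log2 scale.

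A pair of Tudor-domain members fell as well. *TDRKH*, whose mouse protein takes part in trimming piRNAs, stood at 107 and 112 CPM in *bruli* RNAi libraries, against 210 and 206 CPM in controls (log2 −0.92, SE 0.13). *TDRD9*, a Tudor-domain helicase needed for transposon silencing in mice, stood at 198 and 199 CPM, against 360 and 364 CPM in controls (log2 −0.87, SE 0.13). The spread within either group was small beside the difference in both genes. The remaining 3 members did not pass edgeR's test. *DDX4* (comp1985) was at 1164 and 807 CPM after *bruli* RNAi and at 1903 and 1384 CPM after control RNAi (log2 −0.74, adjusted p = 0.0512), *DDX4* (comp2082) differed by −0.60 and the Tudor-domain helicase *TDRD12* by −0.46. *PIWIL1*, *TDRKH* and *TDRD9* are called by names of human or mouse proteins, and reads of close relatives cannot be told apart with certainty.

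The somatic small-RNA machinery, which loads microRNAs and small interfering RNAs, gave no call among its 7 tested transcripts, and its median was −0.002. Over all transcripts 4.17% were called, a share at which 7 transcripts would hold few or none. Members of this list ranged from −0.09 (*AGO2* comp1194, an Argonaute) to 0.37 (*TARBP2*, a Dicer partner). In none of the 7 did both *bruli* RNAi libraries lie below both controls, against 16.1% of all transcripts tested.

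Named falls outside the piRNA list were mostly splicing and mRNA-binding genes, as were the names themselves. Of the 265 tested members of the list of all RNA-binding proteins, 15 fell (5.66%, against 1.81% of all transcripts) and 1 rose (0.377%, against 2.36%), with a median of −0.13. These 15 include the targeted *bruli* and the 4 piRNA transcripts already counted above, so the 5.66% overstates the share of other RNA-binding genes that fell. *SNRPD2* and *SNRPF* encode Sm proteins, which form the ring on spliceosomal small nuclear RNAs. *SNRPD2* was at 66.3 and 64.5 CPM in *bruli* RNAi libraries, against 156 and 172 CPM in controls (log2 −1.32, SE 0.13, edgeR adjusted p = 0.0179), the largest fall of a named spliceosome component. *SNRPF* was at 86.0 and 100.8 CPM after *bruli* RNAi and at 180 and 158 CPM after control RNAi (log2 −0.86, SE 0.15). Among the 17 tested snRNP, Sm and LSm transcripts these were the only calls (11.8% lower, against 1.81% of all transcripts). Of the 17, 15 had a negative difference, against 5257 of 10542 over all transcripts, and the median was −0.35. The transcript carrying KEGG number K12847, part of the core spliceosome list, was at 50.8 and 51.3 CPM, against 93.6 and 97.1 CPM in controls (log2 −0.90, SE 0.13). Over the whole core spliceosome list 3 of 77 fell (3.90%, against 1.81% of all transcripts) and 0 rose, so that the called share was close to the 4.17% of all transcripts, with a median of −0.16 and 59 negative differences.

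The hnRNP proteins coat nascent transcripts, and 2 of the 14 tested fell (14.3%, against 1.81% of all transcripts). *HNRNPA2B1* was at 601 and 487 CPM in *bruli* RNAi libraries, against 1259 and 1052 CPM in controls (log2 −1.09, SE 0.14). *HNRNPK* was at 265 and 191 CPM, against 424 and 348 CPM in controls (log2 −0.77, SE 0.13). None of the 15 SR and TRA2 factors, which promote exon inclusion, passed the test. Of these, 13 had a negative difference (median −0.29), the lowest being *TRA2B* comp4073 at −0.60. In 8 of the 15 both *bruli* RNAi libraries lay below both controls, against 16.1% of all transcripts. The 5 tested *TIA1*-family transcripts, which encode U-rich RNA binders, were all negative and none was called (median −0.35), beside 4.17% called over all transcripts.

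Helicases and other enzymes acting on nucleic acids included 3 more falls. *DDX39B* (comp724), which acts in splicing and mRNA export, was at 583 and 725 CPM in *bruli* RNAi libraries, against 1139 and 1177 CPM in controls (log2 −0.83, SE 0.15), and it was the only call among 30 further DEAD- and DEAH-box helicases (3.33%) and among 17 exon-junction and export transcripts (5.88%), shares close to the 4.17% called over all transcripts. *ALYREF*, an export adaptor, missed the threshold (log2 −0.78, edgeR adjusted p = 0.0546). *ADARB2*, of the family of adenosine deaminases acting on RNA, was at 150 and 144 CPM, against 364 and 289 CPM in controls (log2 −1.14, SE 0.14). The RecQ-family DNA helicase *RECQL* (comp7318) was at 12.8 and 22.1 CPM, against 33.9 and 47.4 CPM in controls (log2 −1.25, SE 0.16). *RECQL* was the only call among 5 DNA repair transcripts (20%, against 4.17% of all transcripts), a share that rests on 1 transcript. *KHDRBS2*, a KH-domain splicing regulator, also fell (log2 −0.75) but ranked below the 12 largest falls, and a pair of RNA-binding transcripts with no named human hit fell by more, comp3741 with a log2 difference of −1.38 and comp1582 with −1.35.

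Lists of ribosome biogenesis (21 tested, median 0.08), translation (18 tested, median −0.05) and RNA decay (6 tested, median 0.08) also gave no call, beside 4.17% called over all transcripts, a share at which lists of this size would hold few or none. The epithelial list (3 tested) and the muscle list (1 tested) had no call either. In the lists of ribosome biogenesis, translation and RNA decay the widest differences were 0.51 for the translational repressor *PUM2* and −0.51 for *LSM14B*, a component of cytoplasmic mRNP granules.

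**Figure D2:**
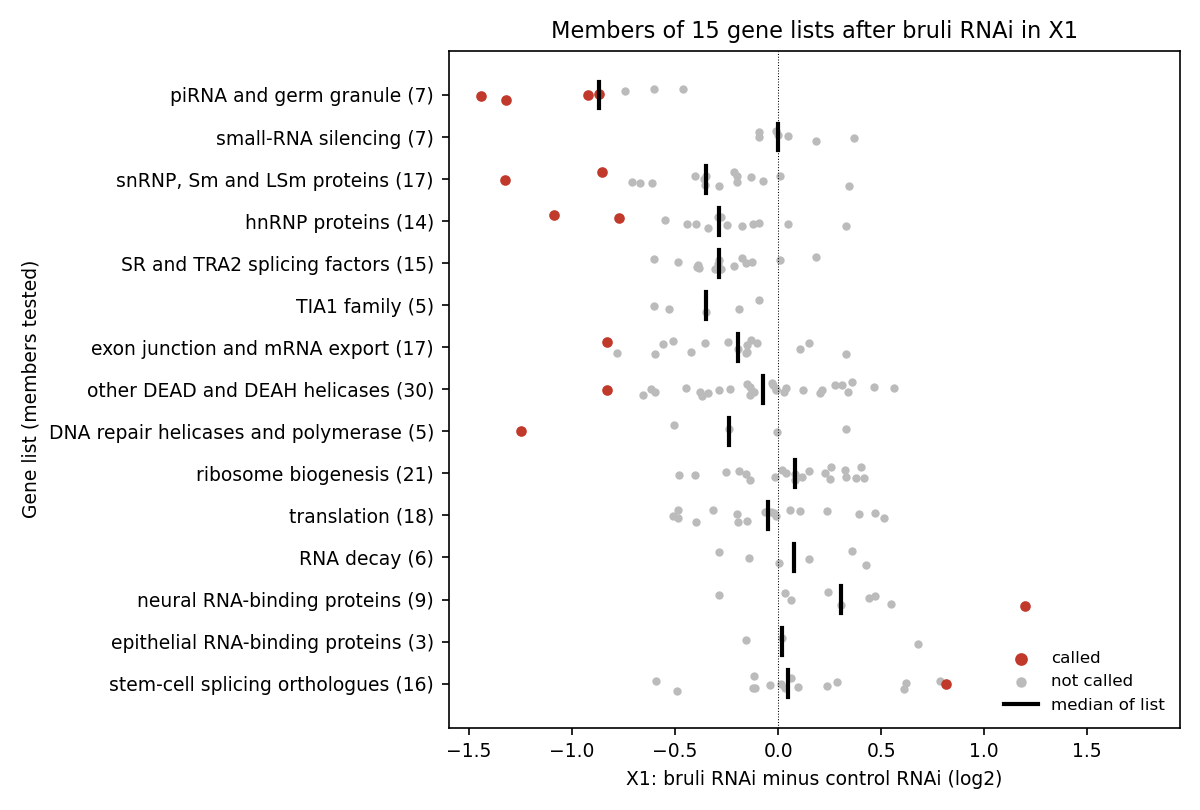
Log2 differences (*bruli* RNAi minus control RNAi in X1) of the tested members of 15 gene lists, 1 point per transcript, red where called, with a black bar at each list's median. The piRNA list lies wholly below 0 with 4 calls, splicing lists lie mostly below 0, and the neural list has 8 of 9 members above 0 with 1 call.

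Only 2 named transcripts rose. *MSI1* (comp7323), closest to the RNA-binding protein Musashi-1 that marks neural progenitors in vertebrates, was at 44.6 and 49.5 CPM in *bruli* RNAi libraries, against 18.2 and 22.9 CPM in controls (log2 1.20, SE 0.15, edgeR adjusted p = 0.0267). *FMNL2*, a formin that builds actin filaments, was at 67.4 and 56.6 CPM, against 37.1 and 33.3 CPM in controls (log2 0.81, SE 0.14). Both *bruli* RNAi libraries lay above both controls in each gene, as the naming rule requires. The neural RNA-binding list had 20 members, 9 of them tested and 11 below the threshold on low values. *MSI1* was its only call (11.1%, against 4.17% of all transcripts), a share that rests on 1 transcript. There were 8 positive differences, against 5285 of 10542 over all transcripts, and the median was 0.31. The study's tables list 16 tested transcripts for stem-cell-associated splicing in orthologues, with a median of 0.05. *FMNL2* was the only call among them (6.25%), a share close to the 4.17% of all transcripts. *EPB41L5* at 0.79, *mbnl-1* at 0.62 and *DNM1* at 0.61 came next and were not called.

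None of the other RNAi targets of the study passed the test. The list has 18 members, of which 10 were tested. Over all transcripts 4.17% were called, a share at which 10 transcripts would hold few or none. The muscleblind genes *mbnl-1* and *mbnl-like-1*, which encode splicing regulators, differed by 0.62 (edgeR adjusted p = 0.0599) and 0.59 (adjusted p = 0.0904), each with both *bruli* RNAi libraries above both controls. The epithelial splicing regulator *esrp-1* differed by 0.68 and *esrp-2* by −0.15. The polypyrimidine-tract-binding genes *ptbp-2* and *ptbp-3* differed by −0.61 and −0.22, *rbfox-1* by −0.57, and *nova-1*, *nova-2* and *nova-3* by 0.44, 0.31 and 0.47.

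Transcripts without a name made up most of the calls. Among them the largest rises were those of comp755 and comp534, at levels near the detection limit in controls. comp755 was at 9.22 and 1.91 CPM in *bruli* RNAi libraries, against 0 and 0.168 CPM (0 and 5 counts) in controls, and comp534 at 24.3 and 5.87 CPM, against 0.308 and 0.505 CPM. With control levels this low, both transcripts passed the threshold on low values through their *bruli* RNAi libraries. A rise was thus built into their being tested. Both were far more abundant in whole worms, where comp755 was at 63.7 plain CPM after *bruli* RNAi and 82.0 after control RNAi, and comp534 at 336 and 364 plain CPM. Among called transcripts without a name the largest falls were those of comp17911, at 0.991 and 2.97 CPM against 9.78 and 13.4 CPM in controls (log2 −2.65), and of comp254, at 1.14 and 1.32 CPM against 9.25 and 5.55 CPM in controls (log2 −2.52). comp254 was likewise low in X1 cells after muscleblind RNAi (1.18 and 1.12 plain CPM) and abundant in whole worms (498 plain CPM after *bruli* RNAi, 604 after control RNAi). No name or function is given for these 4 transcripts, and the fitted log2 differences of the first pair depend on how counts near 0 are treated.

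Wild type libraries, which the test did not use, describe where the called transcripts are normally expressed. A transcript was defined as X1-enriched where wild type X1 exceeded the mean of 2 wild type Xins libraries by at least 2 on log2(cRPKM + 1), Xins-enriched where it was at least 2 lower, and X2-enriched where wild type X2 exceeded both by at least 1. Membership in each set rests on 1 wild type X1 and 1 wild type X2 library. Of 1107 tested X1-enriched transcripts 101 fell (9.12%, against 1.81% of all transcripts) and 13 rose (1.17%), with a median log2 difference of −0.23. Of 1275 tested Xins-enriched transcripts 98 rose (7.69%, against 2.36%) and 4 fell (0.314%), with a median of 0.34. Of 248 tested X2-enriched transcripts 28 rose (11.3%) and 4 fell (1.61%), with a median of 0.23. The X2-enriched median was 0.10 with no filter on low values, and the Xins-enriched median was 0.64 without control replicate 1, 0.14 without control replicate 2 and 0.21 without *bruli* RNAi replicate 1. Put the other way, 52.9% of the transcripts that fell were X1-enriched, a set that made up 10.5% of all tested, and 39.4% of those that rose were Xins-enriched, a set that made up 12.1%.

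The relation was graded. Transcripts at least 4 higher in wild type X1 than in Xins had a median log2 difference of −0.32 after *bruli* RNAi, and 30 of 159 fell. Those between −1 and 1 had a median of 0.004, and those at least 4 lower in X1 had a median of 0.42, with 46 of 371 higher. Not every transcript followed it, as 2 of the 159 rose and 3 of the 371 fell. Most Xins-enriched transcripts had too few counts in X1 libraries to be tested, and 2973 of the 4248 were left out by the threshold on low values. Of the 502 X2-enriched transcripts, 254 were left out by it as well. A scarce transcript could pass this threshold through high *bruli* RNAi libraries alone. The counts and medians of both sets thus describe only the members that passed. With no filter the Xins-enriched median was 0.39.

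**Figure D3:**
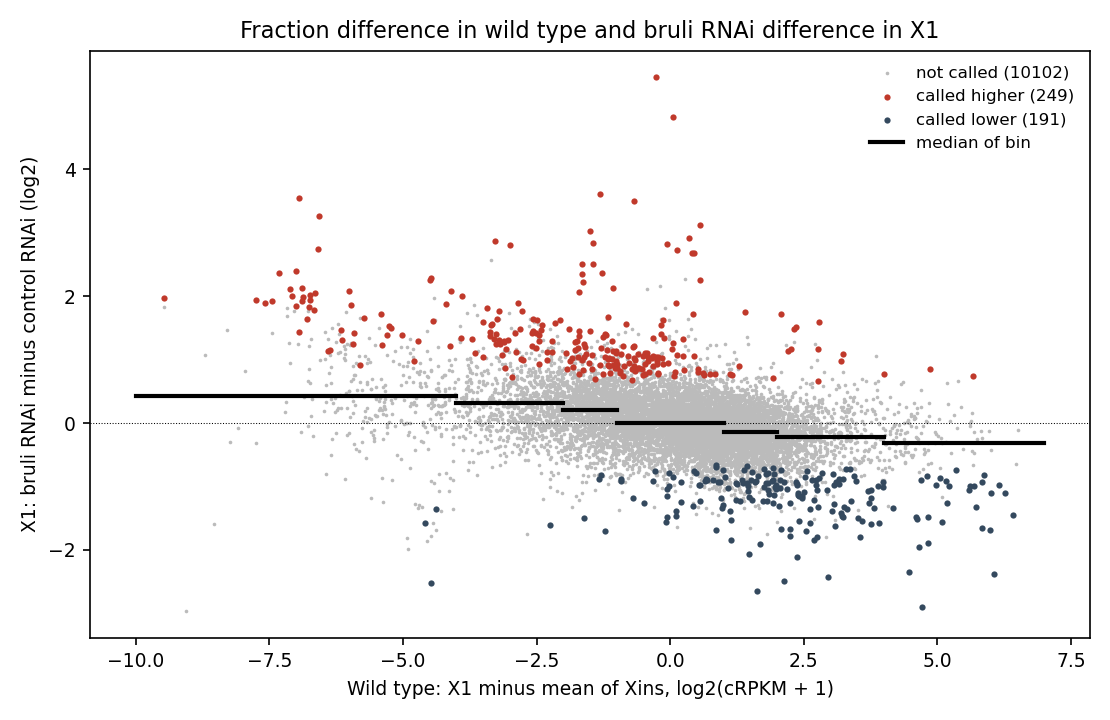
Each point is 1 of 10542 transcripts, with its wild type difference between X1 and Xins on log2(cRPKM + 1) across and its log2 difference between *bruli* RNAi and control RNAi in X1 up the page. Called transcripts are coloured (249 higher, 191 lower), and black bars give the median of each of 7 bins, which pass from 0.42 on the left to −0.32 on the right.

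The summed levels of these sets show how large a share of each library was involved. X1-enriched transcripts summed to 160665 and 141452 CPM in *bruli* RNAi libraries, against 190965 and 185202 CPM in controls, without overlap. X2-enriched transcripts summed to 9774 and 7855 CPM, against 7625 and 6481 CPM in controls, also without overlap. Xins-enriched transcripts summed to 30463 and 24001 CPM, against 28215 and 15433 CPM in controls, so the groups overlapped, and their median log2 difference was 0.16 within replicate number 1 and 0.50 within number 2. The 11 markers of differentiated cells (*celf-2*, *rbfox-2*, *rbfox-3*, *MSI1* comp13817, *MSI2*, *RBPMS*, 3 *ELAVL4* and 2 *A1CF* transcripts) summed to 57.1 and 50.7 CPM, against 44.6 and 50.3 CPM in controls, and none of them was at 0 in any of the 4 libraries. *ELAVL4* comp10994 held the largest part of the sum, with 21.8 and 31.5 CPM against 26.7 and 38.2 CPM in controls. In 7 of the 11 (*celf-2*, *rbfox-3*, *MSI2*, *RBPMS*, *ELAVL4* comp13151 and both *A1CF* transcripts) both *bruli* RNAi libraries lay above both controls, against 20.9% of all transcripts tested, and in 0 of the 11 below. All of these 7 lay under the threshold on low values. The 20.9% comes from transcripts above that threshold, so the shares are not like for like. *rbfox-3*, for example, was at 7.68 and 3.37 CPM, against 2.47 and 2.22 CPM in controls. Of the 2 that could be tested neither was called. The 5 neoblast markers other than *bruli* (2 *PIWIL1*, 2 *DDX4* and *TDRKH*) summed to 4905 and 4523 CPM, against 10930 and 10694 CPM in controls. All 5 belong to the piRNA list above, so their sum is no separate observation. In bulk samples such as these, fewer cells of a type and less RNA per cell cannot be told apart, and the part of other sorted cells in these results was not tested.

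**Figure D4:**
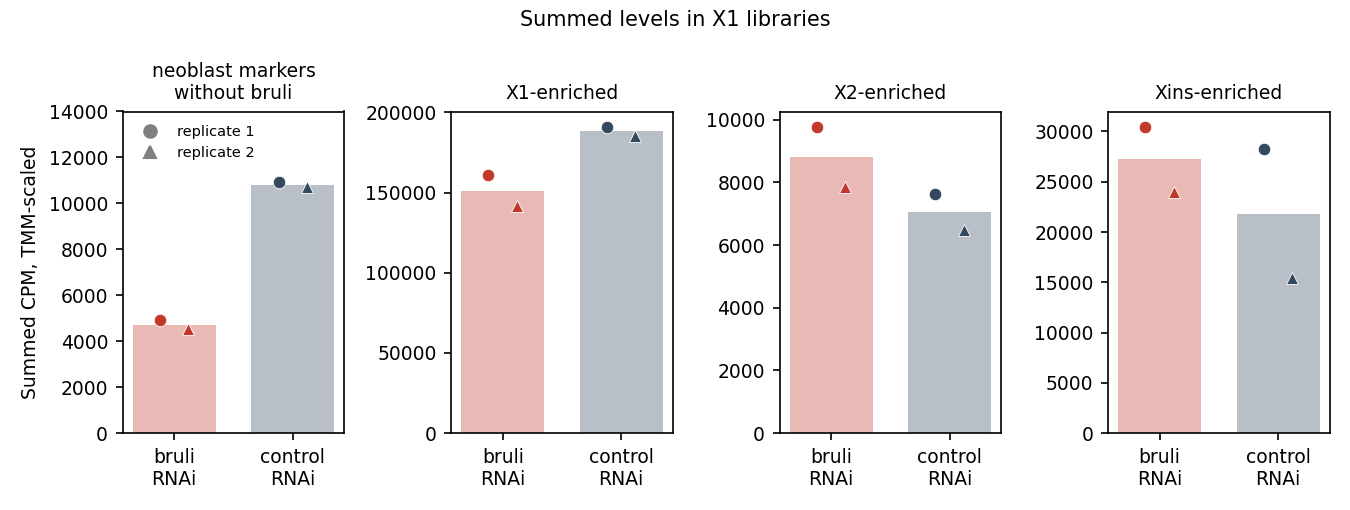
Summed CPM of 5 neoblast markers without *bruli* and of the wild type X1-, X2- and Xins-enriched sets in the 4 X1 libraries (bars, mean of 2 libraries; circles, replicate 1; triangles, replicate 2), with axes from 0. The groups do not overlap for the markers, the X1-enriched and the X2-enriched set, whereas Xins-enriched sums overlap (30463 and 24001 CPM against 28215 and 15433 CPM).

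Transcript length moved with the differences as well. With transcripts in 3 equal classes of mappable length, the median log2 difference was −0.12 in the shortest, −0.04 in the middle and 0.13 in the longest class. Within each class the X1-enriched set stayed negative (medians −0.31, −0.22 and −0.14 from short to long) and the Xins-enriched set positive (0.31, 0.31 and 0.38).

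Xins cells of the same kind of worm, with controls of their own, had no transcript called for *bruli* RNAi by edgeR's quasi-likelihood test in a fit of 8 libraries, with 497 at an unadjusted p under 0.05, where the X1 contrast had 306 calls. No other tool was run for Xins. *bruli* in Xins was at 7.01 and 12.3 CPM, against 46.8 and 37.7 CPM in Xins controls (log2 −2.16, SE 0.29, adjusted p = 0.369). The difference between the X1 and the Xins effect was itself tested, and 2 of 12549 transcripts were called (0.0159%), with 1671 at an unadjusted p under 0.05. No named transcript was among them. For *SNRPD2* the X1 effect minus the Xins effect was −1.21 (SE 0.19, edgeR adjusted p = 0.149), and for *PIWIL1* comp1258 it was −0.90 (SE 0.23, adjusted p = 0.235). *PIWIL1* comp659 differed by −2.995 (SE 0.43) in Xins, on 7.88 and 5.01 CPM against 116.6 and 21.5 CPM in Xins controls, and its interaction was not called (adjusted p = 0.345). A different response of the named genes in X1 and Xins is thus not shown here, and these 8 libraries do not show an equal one either.

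X2 cells and whole worms have 1 library per treatment, so their log2((cRPKM + 1)/(control cRPKM + 1)) is given with no test. Both hold neoblasts, so a fall shared with X1 is not a repeat in cells other than neoblasts. *PIWIL1* comp1258, for example, was at 2674 plain CPM in wild type X2 and 2918 in wild type X1. The other neoblast markers were in proportion further below X1 in wild type X2, such as *PIWIL1* comp659 at 1498 against 5458 plain CPM. Of the 191 transcripts lower in X1, 186 were below their own control in X2 (97.4%, against 51.2% of all transcripts tested in X1), with a median of −0.69. Of the 249 higher in X1, 217 were above it in X2 (87.1%, against 48.5%), with a median of 0.47. In whole worms 121 of the 191 lower ones were below their control (63.4%, against 30.3%). Of the 249 higher ones 177 were above it (71.1%), which is close to the 68.5% of all transcripts, and their median of 0.12 equalled that of all transcripts to 2 decimals. In X2, *PIWIL1* comp659 was at 302 plain CPM after *bruli* RNAi and at 969 after control RNAi, and *HNRNPA2B1* at 644 after *bruli* RNAi and at 1165 after control RNAi. The 13 plotted transcripts that fell in X1 were also below their control in X2, from −0.30 for *HNRNPK* to −2.10 for *bruli*, and 12 of them in whole worms, where *RECQL* was above it (0.44). *MSI1* and *FMNL2* were above their controls in X2 (0.20 and 0.45) and in whole worms (0.29 and 0.18).

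**Figure D5:**
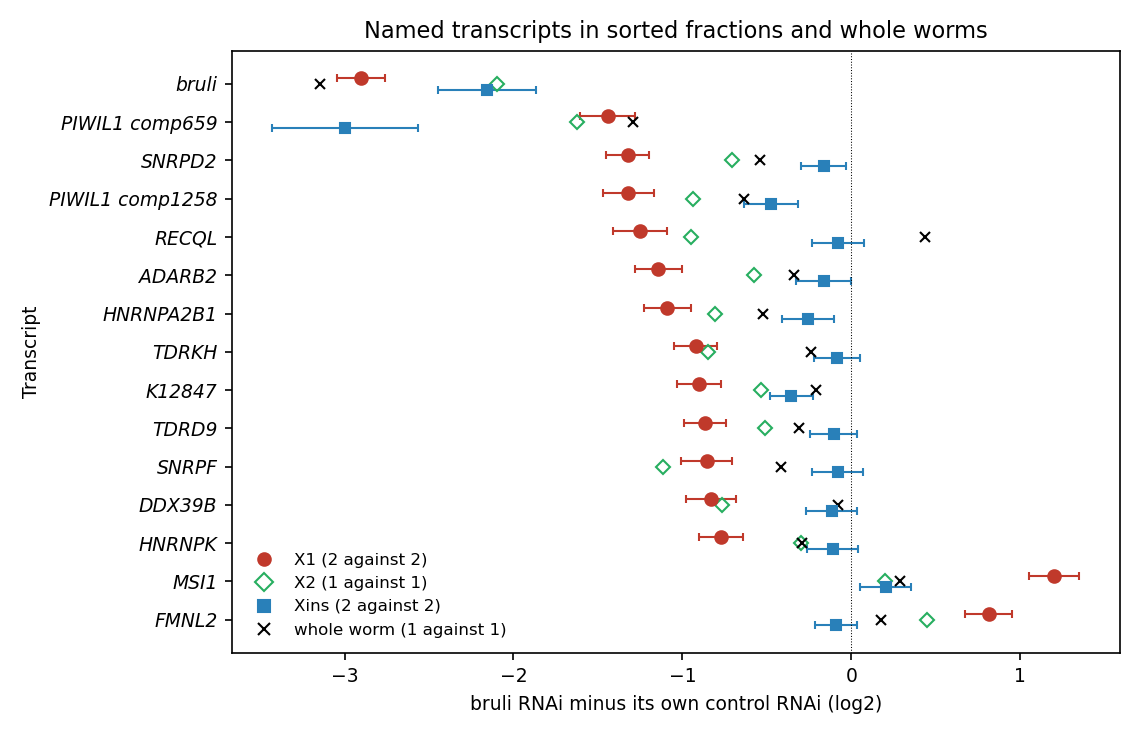
Log2 difference between *bruli* RNAi and its own control for the 15 named transcripts in X1 (red circles, edgeR estimate with SE), Xins (blue squares, edgeR estimate with SE), X2 (open diamonds) and whole worms (crosses), the last pair on log2(cRPKM + 1) from 1 library per treatment. Named falls in X1 lie below 0 in X2 as well, and Xins estimates other than *bruli* and *PIWIL1* lie within 0.36 of 0.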

How the data were processed

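Poly(A)-selected RNA was sequenced, and the authors mapped reads with Bowtie and used vast-tools on a de novo transcriptome rather than a genome (tool versions not given in the sources used here). Each deposited table holds, for 22944 transcripts, a raw read count, which the authors did not normalize, and a cRPKM, the authors' RPKM corrected for mappable positions. Blank counts were read as 0. Groups came from the labels.

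Counts of the 4 X1 libraries were fitted with edgeR 4.0.16 (R 4.3.3, TMM scaling, quasi-likelihood test, two-sided, Benjamini-Hochberg over 10542 transcripts, replicate number as a block, 1 residual degree of freedom). limma 3.58.1 and DESeq2 1.42.0 served as alternatives. The labels do not say that numbers pair libraries. Differences between number 1 and number 2 correlated at 0.509 between *bruli* and control RNAi in X1, and above 0.1 in 14 of 15 pairs of sorted RNAi groups (0.0259 to 0.702).

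The 4 libraries follow from their labels, but this comparison and the gene lists were chosen with earlier results of these data known. Names and lists come from the study's annotation (367 of 372 identifiers are among the transcripts). The text names *bruli*, the up to 12 largest named rises and falls whose libraries do not overlap, up to 4 members per list, all tested RNAi targets, and 2 unnamed rises and falls, with exceptions stated. Scripts were tested on simulated data. Low counts limit precision to counting error at best. Splicing was not analysed here.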

Additional observations from a re-analysis of the deposited data

Results flagged for a closer look

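The *bruli* effect differed between X1 and Xins cells in 2 transcripts by edgeR's test of the difference, chosen here after their values were seen. comp332 was at 182 and 97.9 CPM in X1 *bruli* RNAi libraries, against 45.2 and 16.1 CPM in X1 controls, and at 112 and 6.40 CPM in Xins *bruli* RNAi libraries, against 478 and 33.7 CPM in Xins controls. The X1 effect minus the Xins effect was 4.54 on the log2 scale (SE 0.28, edgeR adjusted p = 0.0325). comp478 behaved alike, at 178 and 92.1 CPM against 40.7 and 13.3 CPM in X1, and at 101 and 8.28 CPM against 428 and 42.9 CPM in Xins, with a difference of 4.67 (SE 0.29, adjusted p = 0.0325). Replicates of 1 treatment differed widely in Xins, and the calls rest on the block within each fraction. Both transcripts were abundant in X2, at 3710 (comp332) and 3797 (comp478) plain CPM after *bruli* RNAi and 2445 and 2733 after control RNAi. They carry no name.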

How the results depend on the processing

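The direction of the *bruli* difference and of all 14 other named transcripts held under every alternative. The 14 had been picked as calls whose libraries do not overlap, which *bruli* also shows. A change of direction in fits of the same libraries was thus hardly possible, and the kept direction is no separate evidence. *bruli* was no longer called without the replicate block (log2 −2.90), and with 1 library left out it ranged from −3.002 to −2.83. Without the block no transcript was called (0 higher, 0 lower). Calls numbered 832 (426 higher, 406 lower) with DESeq2 size factors in edgeR, 899 (431 and 468) with DESeq2, 1758 (941 and 817) with no filter on low values, 917 (461 and 456) with a mean above 3, 852 (410 and 442) with limma on log2(cRPKM + 1), 620 (301 and 319) with a pseudocount of 0.1, 401 (231 and 170) with the spread of the 6 X1 RNAi libraries, and 161 (86 and 75) with the spread of the 12 sorted RNAi libraries. With 1 library left out calls ranged from 0 to 11 (0 to 3 higher, 0 to 9 lower), in a fit where 1 complete pair of libraries remains. Why the other settings differ was not tested. The X1-enriched median, −0.23 as reported, was −0.22 with no block, −0.26 with DESeq2 size factors, −0.27 with DESeq2, −0.29 with no filter, −0.20 with the stricter one, −0.23 and −0.24 with limma at pseudocounts of 1 and 0.1, −0.25 and −0.25 with the spread of the 6 X1 and the 12 sorted RNAi libraries, −0.16 with a set threshold of 1, and −0.27 to −0.21 with 1 library left out. The X2-enriched median was 0.20 in each of DESeq2, its size factors in edgeR and limma on log2(cRPKM + 1), 0.10 with no filter, 0.32 with the stricter one, and 0.16 to 0.26 with 1 library left out. Of the 15 named calls, 12 were also made with the spread of the 6 X1 RNAi libraries and 11 with that of the 12 sorted ones. The Xins-enriched median was 0.14 to 0.64 with 1 library left out, highest without control replicate 1 and lowest without control replicate 2. The interaction gave 0 calls with 1 block over both fractions, with no replicate block and with any X1 library left out. Of the values for other named transcripts 105 kept their call and 77 lost it, mostly without the block or with 1 library left out, and of the list values 223 stayed within the difference between replicate numbers and 105 moved further.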
